A study of Homo sapiens with 36 samples.

Results

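The oxygen-sensing hydroxylases of the HIF pathway and 3 of its feedback regulators form a group of 7 genes: EGLN1, EGLN2, EGLN3, HIF1AN, CITED2, ANKRD37 and SIAH2. To ask where V5-tagged HIF-α occupied these loci, Cut&Run peaks were taken whose summit lay inside the GENCODE gene body of a member or within 50 kb of either end. The 7 genes, of 19663 protein-coding genes, held 492 of the 213711 peaks in 18 anti-V5 lists. After overlapping peaks were merged across lists and regions found in at least 2 libraries were kept, they held 50 of 25783 consensus regions.

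All samples were 786-O cells, an established human clear cell renal carcinoma line that has lost working VHL and makes no functional HIF-1α, which leaves HIF-2α undegraded even with oxygen present in every group, controls included. The study comprised 36 libraries from 6 lines, with 3 replicates of anti-V5 and of mouse IgG Cut&Run in each. WT cells carry no tag and show what the antibody gives without its target. HIF-2α KIN cells carry a V5-Halo tag on the endogenous protein and come from 1 homozygous clone. The other 4 lines stably express exogenous Halo- and V5-tagged proteins from the weak L30 promoter on top of the cells' own HIF-2α. They were HIF-1α, HIF-2α and a pair of chimeras. HIF-2α/1α has the N-terminal DNA-binding portion (DBD) of HIF-2α and the disordered C terminus (IDR) of HIF-1α, and HIF-1α/2α has the reverse.

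EGLN1, EGLN2 and EGLN3 encode the prolyl hydroxylases PHD2, PHD1 and PHD3, which use oxygen to modify HIF-α so that VHL can bind it and target it for degradation. HIF1AN encodes FIH, which hydroxylates an asparagine in the C-terminal transactivation domain of HIF-α and blocks recruitment of the coactivators CBP and p300. CITED2 competes with HIF-α for the same coactivators, and SIAH2 is a ubiquitin ligase that acts on prolyl hydroxylases. ANKRD37, a small ankyrin-repeat protein, is known mainly as a gene induced in hypoxia. Several of these genes are HIF targets themselves, and for those that restrain HIF this closes a negative feedback loop. HIF binds DNA at the hypoxia response element (HRE), whose core is ACGTG or GCGTG.

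The sequences under the main summits show how differently the HRE sits in these regions. Each stretch below is the plus strand of hg38 from 50 bp around the median summit of a region, extended to the nearest HRE where one lay within 200 bp, and bases that belong to untranslated exons were left out. Capitals mark ACGTG or GCGTG on either strand (read as CACGT or CACGC where the reverse strand carries it) and the AP-1 motif TGAGTCA or TGACTCA. The first 5 are the promoter or strongest regions of the genes other than EGLN3 with the most calls, and the last 3 are the EGLN3 promoter, its strongest region and the region with the largest difference between IDRs.
EGLN1 promoter, chr1:231422401-231422599: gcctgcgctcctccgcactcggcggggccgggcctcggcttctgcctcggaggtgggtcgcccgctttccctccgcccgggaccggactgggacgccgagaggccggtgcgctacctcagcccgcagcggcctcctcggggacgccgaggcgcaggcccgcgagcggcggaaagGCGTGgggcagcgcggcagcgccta
EGLN2 upstream region, chr19:40778085-40778185: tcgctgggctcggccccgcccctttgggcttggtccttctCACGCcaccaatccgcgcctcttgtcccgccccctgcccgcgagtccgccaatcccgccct
CITED2 promoter, chr6:139375419-139375641: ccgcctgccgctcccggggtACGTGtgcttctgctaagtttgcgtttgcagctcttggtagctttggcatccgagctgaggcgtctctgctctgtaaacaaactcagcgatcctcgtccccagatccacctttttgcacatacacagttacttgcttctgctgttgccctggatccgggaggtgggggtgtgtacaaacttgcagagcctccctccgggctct
ANKRD37 promoter, chr4:185396610-185396710: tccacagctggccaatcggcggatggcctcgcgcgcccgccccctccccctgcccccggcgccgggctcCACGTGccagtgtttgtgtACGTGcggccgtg
SIAH2 promoter, chr3:150763182-150763353: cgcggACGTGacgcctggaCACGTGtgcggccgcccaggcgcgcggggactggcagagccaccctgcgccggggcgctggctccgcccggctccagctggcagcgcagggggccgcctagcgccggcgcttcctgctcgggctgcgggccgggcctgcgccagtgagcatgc
EGLN3 promoter, chr14:33951175-33951275: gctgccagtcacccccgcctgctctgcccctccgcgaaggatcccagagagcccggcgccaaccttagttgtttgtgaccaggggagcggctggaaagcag
EGLN3 strongest region, chr14:34035759-34035980: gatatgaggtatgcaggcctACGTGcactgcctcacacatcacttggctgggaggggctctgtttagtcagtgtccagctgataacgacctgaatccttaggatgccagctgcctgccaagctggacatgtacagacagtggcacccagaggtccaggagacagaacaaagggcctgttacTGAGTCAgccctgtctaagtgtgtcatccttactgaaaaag
EGLN3 region with the IDR difference, chr14:34013429-34013652: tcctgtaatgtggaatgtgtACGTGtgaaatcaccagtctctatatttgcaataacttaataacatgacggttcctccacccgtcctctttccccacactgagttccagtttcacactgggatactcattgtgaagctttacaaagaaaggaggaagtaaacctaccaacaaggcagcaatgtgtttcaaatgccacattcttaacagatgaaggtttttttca

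The ANKRD37 promoter had 3 HRE matches within 50 bp of its summit, since CACGTG reads as the motif on both strands and a further ACGTG follows it. In the SIAH2 stretch a CACGTG and an ACGTG also lay close together, 146 bp or more from the summit. The EGLN3 promoter had no match in its stretch, and the nearest lay 384 bp from the summit. At the strongest EGLN3 region an ACGTG stood 149 bp from the summit and an AP-1 motif lay within 50 bp, and at the region with the IDR difference an ACGTG stood 151 bp away.

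Matches away from the summit were common in these lists, but at most regions nearer than the distances given for SIAH2 and EGLN3. Among the 1201 consensus regions called in all 15 tagged and 0 WT libraries, HRE matches were most frequent 75 to 100 bp from the summit, at 8.16 per kb, against 4.95 within 25 bp. Within 150 bp of the summit, a match was present in 59.8% of all consensus regions, in 89.2% of those 1201 and in 22 of the 50 regions of the 7 genes (44%). For the 30 EGLN3 regions it was 10 (33.3%). Within 50 bp, the share was 24.4% of all consensus regions and 5 of the 50. The median distance to the nearest HRE was 310 bp at EGLN3, 109 bp over all consensus regions and 70 bp in those 1201. A match describes letters in a window and is no evidence that HIF binds there.

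Before the loci are described, the lists themselves need a caution. WT libraries gave 392, 9508 and 743 peaks, so WT replicate 2 stood apart. The smallest adjusted p and the regions free of WT calls are also given without it, but the shares over genes are not. Tagged libraries gave 3984 to 20808 peaks at an inferred depth of 0.253 to 0.625 fragments per base, and WT libraries had a depth of 0.241 to 0.302. At a fixed threshold, lists of different length differ in what they can call, and the lack of a peak is not evidence that a site was free of HIF. In bulk chromatin, binding in fewer cells and less binding per cell cannot be told apart, and the amount of each tagged protein was not analysed here. Peak lists hold no expression values, so the identity of the cells could not be checked on marker genes.

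All 7 genes had at least 1 consensus region in their window and 1 within 1 kb of a transcription start site (TSS), against 76.7% and 38.1% of all coding genes. Tagged lists held 18 to 50 peaks of the 7 genes (mean 32.3 ± 8.89, SD, n = 15 libraries), which was 0.168 to 0.457% of a list, and the WT lists held 1, 7 and 0. The windows differ in size, because GENCODE transcripts stretch the EGLN3 gene body to 539 kb. EGLN3 had 30 of the 50 consensus regions and 288 of the 492 peaks, EGLN1 and CITED2 had 5 regions each, EGLN2 and HIF1AN 3 each, and ANKRD37 and SIAH2 2 each. Per 100 kb of window, CITED2 (4.86) and EGLN3 (4.70) were densest and SIAH2 (1.63) was sparsest. A further 43 regions were found in 1 library only and are not described.

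Calls of the tagged protein against untagged cells were compared with a two-sided Fisher's exact test for each region. A region with a peak in all 15 tagged libraries and in none of the 3 WT libraries reached an adjusted p of 0.0263 in this exact test, and no other pattern reached the threshold. Of the 50 regions, 5 had this pattern (10%), against 4.66% of all consensus regions. These were 1 region of EGLN2, 3 of EGLN3 and the ANKRD37 promoter. At genes rather than regions, 3 of the 7 had such a region in the window, against 10.8% of coding genes, and 1 of the 7, ANKRD37, had it at a TSS, against 2.06%. EGLN3 ranked 8 of 19663 coding genes, tied with others to a total of 45, by its number of such regions, in a window that is wider than most. The call did not pass when libraries were compared within their replicate number (0 of the 50 and 0 of all regions, smallest adjusted p of the 50 of 0.0994, exact stratified test). With 2 WT libraries left no region in the genome passed either, and the smallest adjusted p was 0.119 without WT replicate 2 and 0.156 without replicate 1 or 3 (exact tests). In these settings even a peak in all tagged and no WT libraries has a p too large to pass adjustment. They therefore cannot tell whether the calls are stable. At an unadjusted exact p under 0.05 there were 17 of the 50 regions and 4645 of all 25783.

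In WT cells 4 of the 50 regions were called, all in WT replicate 2 and none in the other two WT libraries, against 14.3% of all consensus regions with a call in any WT library. They were the CITED2 promoter, with a fold enrichment of 4.29, and 3 EGLN3 regions that were also called in all 15 tagged libraries. At the strongest of these, the EGLN3 region 84.9 kb upstream, the WT peak had a fold of 5.47, below the lowest tagged library at 17.7, and its summit lay up to 745 bp from those of the tagged libraries. At the region 93.1 kb upstream the WT peak was stronger, with a fold of 8.78 against 15.2 to 55.8 in tagged libraries. Its percentile there, 88.6, lay above those of KIN replicates 1 and 3 (84.3 and 86.3), HIF-1α replicate 1 (88.0) and HIF-1α/2α replicate 1 (88.4). At the region 12.5 kb downstream the WT fold was 5.43, against 14.1 to 61.7 in tagged libraries. Without WT replicate 2, all 9 of the 50 regions called in every tagged library had no WT call. The other WT lists held only 392 and 743 peaks, so a lack of calls in them says little. The matching share over all regions is not given. Over the whole genome, 1720 consensus regions were called in every tagged library, with or without a WT call.

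**Figure D1:**
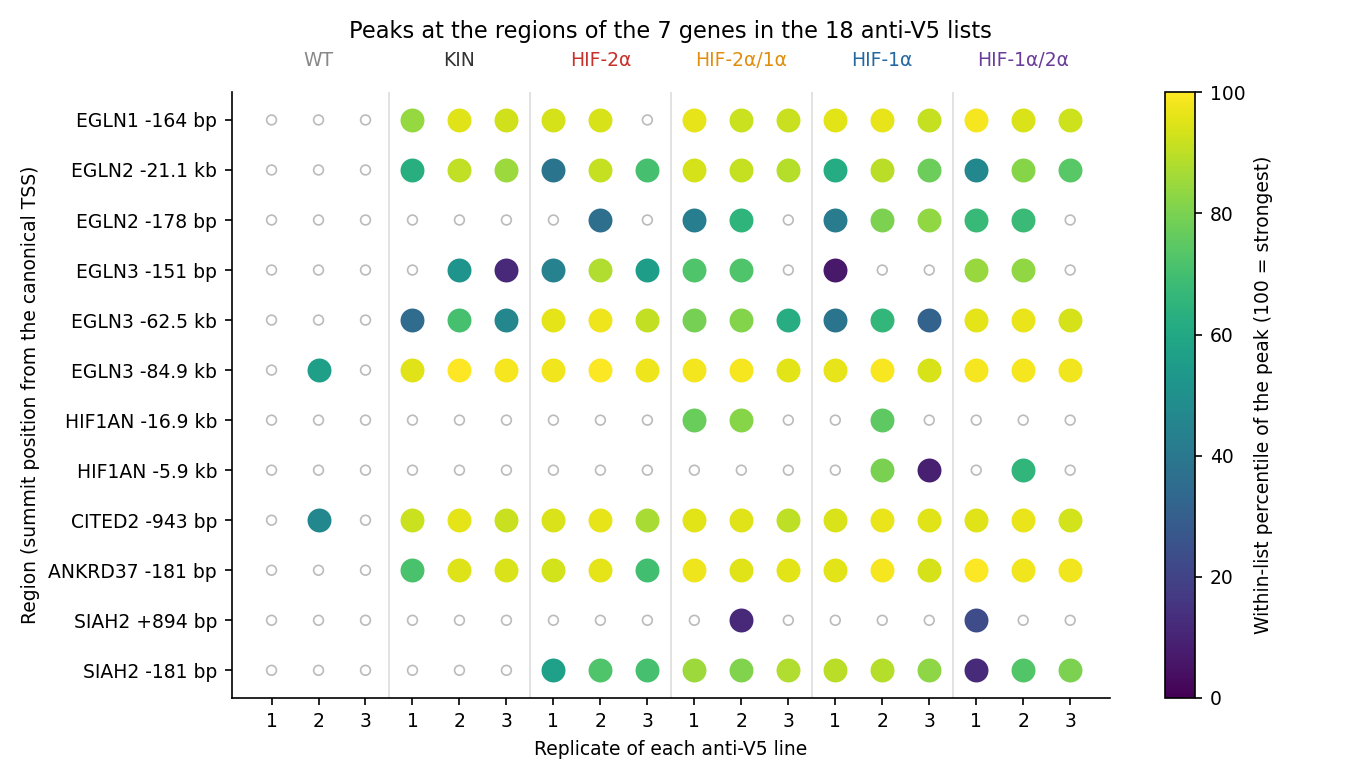
Calls at the 12 regions described for the 7 genes, 1 row per region (position of the summit from the canonical TSS) and 1 column per anti-V5 library. Filled points are called peaks coloured by their percentile within their own list by −log10 p (100 is the strongest peak), and small open points are libraries without a peak. ANKRD37 and the EGLN3 regions 62.5 and 84.9 kb upstream are called in all 15 tagged libraries, the SIAH2 promoter in all 12 exogenous and in 0 of 3 KIN libraries, and the HIF1AN regions in 3 libraries each.

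EGLN1, the hydroxylase that carries most of the regulation of HIF-α in normal oxygen, was marked at its promoter. The region chr1:231418856-231423702 had its median summit 164 bp upstream of the TSS. It was called in 14 of 15 tagged libraries and in 0 of 3 WT libraries, and the exception was HIF-2α replicate 3, whose list held 5906 peaks. In KIN cells the fold enrichment was 11.9, 33.3 and 24.0. HIF-2α cells gave 33.8 and 30.4 in the 2 libraries that called it, HIF-2α/1α cells gave 42.5, 48.8 and 30.1, HIF-1α cells gave 18.4, 45.9 and 22.4, and HIF-1α/2α cells gave 59.7, 30.2 and 20.3. The lines overlapped throughout, and the peak lay between the percentiles 84.0 and 98.8 of its list (median 93.7). Since 1 exogenous library lacked it, its strength was not tested.

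EGLN2 had its strongest region away from its own promoter. The region chr19:40777345-40778956 lay 21.1 kb upstream of the canonical EGLN2 TSS but 81 bp from the TSS of RAB4B, a small GTPase gene that also has read-through transcripts into EGLN2. It was called in all 15 tagged and in 0 WT libraries. The fold enrichment was 6.11, 14.7 and 8.43 in KIN, 6.75, 20.4 and 11.1 in HIF-2α, and 34.5, 19.2 and 18.9 in HIF-2α/1α. It was 5.51, 17.9 and 11.0 in HIF-1α and 5.50, 7.23 and 9.60 in HIF-1α/2α. HIF-2α/1α had the highest mean of the 5 lines, although HIF-2α replicate 2, at 20.4, lay above 2 of them. At the TSS of EGLN2 itself, the region chr19:40798727-40799269 was called in 8 exogenous libraries and in 0 KIN and 0 WT libraries, with fold enrichments of 3.67 to 12.8.

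EGLN3, a hydroxylase gene that is strongly induced by hypoxia in many cell types, had most of the peaks and consensus regions, in by far the widest window. At its promoter, the region chr14:33950766-33952084 had its summit 151 bp upstream of the canonical TSS and a peak in 10 of 15 tagged libraries, with none in WT cells. It was called in 2 of 3 KIN, 3 of 3 HIF-2α, 2 of 3 HIF-2α/1α, 1 of 3 HIF-1α and 2 of 3 HIF-1α/2α libraries, with fold enrichments of 3.81 to 30.0 and percentiles of 6.42 to 87.9. The promoter was thus neither the most regular nor the strongest site of this gene.

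The strongest and most regular EGLN3 regions lay far upstream, inside introns of long EGLN3 transcripts. Of the 30 consensus regions, 6 were called in all 15 tagged libraries, 1 of them 12.5 kb downstream of the canonical TSS and 5 upstream at distances between 62.5 and 112.7 kb. Altogether 17 of the 30 lay 60 to 150 kb upstream and 9 lay downstream of the TSS. No other protein-coding TSS was nearer to these 6 regions than that of EGLN3. Nearness does not tell which gene a region acts on, and this was not tested.

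**Figure D2:**
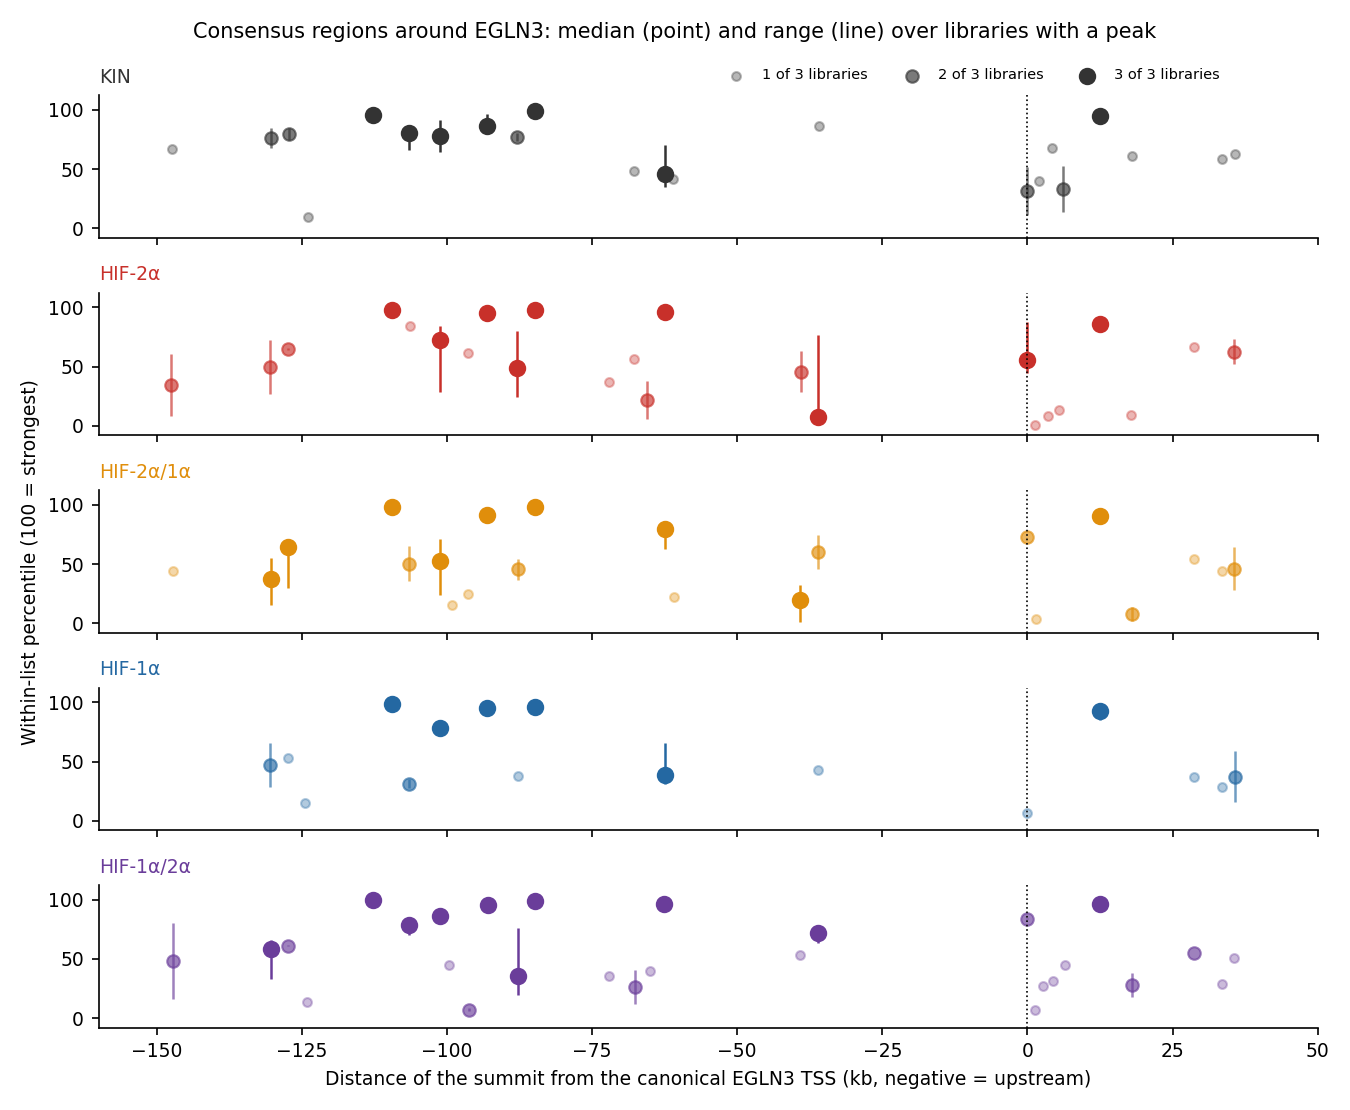
Consensus regions between 160 kb upstream and 50 kb downstream of the canonical EGLN3 TSS (dotted line), 1 panel per tagged line. The x axis is the distance of the summit from the TSS in kb and the y axis the percentile of the peak within its list (100 is the strongest), with points at the median and lines over the range of the libraries that called the region; larger and darker points were called in more of the 3 libraries. The upstream group contains the highest points in every line, and the region 62.5 kb upstream is high in HIF-2α and HIF-1α/2α but not in KIN or HIF-1α cells.

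The region with the highest median percentile, chr14:34034255-34037430, lay 84.9 kb upstream. Its fold enrichment was 17.7, 129 and 67.1 in KIN, 44.1, 114 and 29.3 in HIF-2α, and 52.7, 55.0 and 31.9 in HIF-2α/1α. It was 28.7, 79.8 and 19.0 in HIF-1α and 57.6, 57.2 and 29.9 in HIF-1α/2α. Replicates of 1 line spread as widely as the lines did, while the percentile was narrow, from 93.9 to 99.6 (median 98.1). With the HIF-2α IDR the centred log2 fold enrichment was higher by 0.60 (95% interval −0.07 to 1.28, limma adjusted p = 0.363), which did not pass. Over the 15 tagged libraries, the promoter regions whose strength most resembled this pattern were those of CD109 (Pearson r = 0.79), NDRG1 (0.78) and ARID1B (0.70). This is a description over 464 promoter regions, whose median r was −0.05, and libraries share their depth and line.

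At the far end of the group, the merged region chr14:34058288-34064934 joined a pair of strong summits. One summit lay 112.7 kb upstream and was called in 13 tagged libraries with fold enrichments of 20.0 to 143, and the other lay 109.4 kb upstream and was called in 10 libraries with fold enrichments of 18.8 to 64.7. The summit at 109.4 kb was called as a peak of its own in 3 of 3 KIN, 2 of 3 HIF-2α, 2 of 3 HIF-2α/1α, 3 of 3 HIF-1α and 0 of 3 HIF-1α/2α libraries. The summit at 112.7 kb was missing in HIF-1α replicate 3 and HIF-2α/1α replicate 1. The deposited lists give 1 summit per peak, so a peak that spans both sites shows only 1. Whether this occurred was not tested. The strongest peak of the library represented the region, and it was the 112.7 kb summit in some libraries and the 109.4 kb summit in others, so that strength in this region compares a mixture of sites.

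To compare lists that differ in length, every list was reduced to its strongest peaks, as many as the shortest tagged list held (3984, give or take ties). EGLN3 then had 12, 12 and 12 peaks in KIN, 10, 8 and 9 in HIF-2α and 10, 9 and 8 in HIF-1α/2α libraries. It had 5, 5 and 6 in HIF-2α/1α and 6, 5 and 4 in HIF-1α libraries, and 0, 2 and 0 in WT. Each of the 6 libraries with the HIF-2α IDR exceeded each of the 6 with the HIF-1α IDR. Of the 7 genes, EGLN3 alone was separated in this way, and of 10063 coding genes with a strongest-list peak 0.268% were separated in this direction. In the other direction, with more peaks for the HIF-1α IDR, 0.368% of the 10063 and 0 of the 7 were separated. The EGLN3 window is wider than most, and these shares were not matched for window size. With the DBD as the divider, 0 of the 7 genes were separated, against 0.119% of the 10063 genes with more peaks for the HIF-2α DBD and 0.397% with more for the HIF-1α DBD. The other 6 genes together had 4 to 7 such peaks in every tagged library, and there the lines overlapped.

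**Figure D3:**
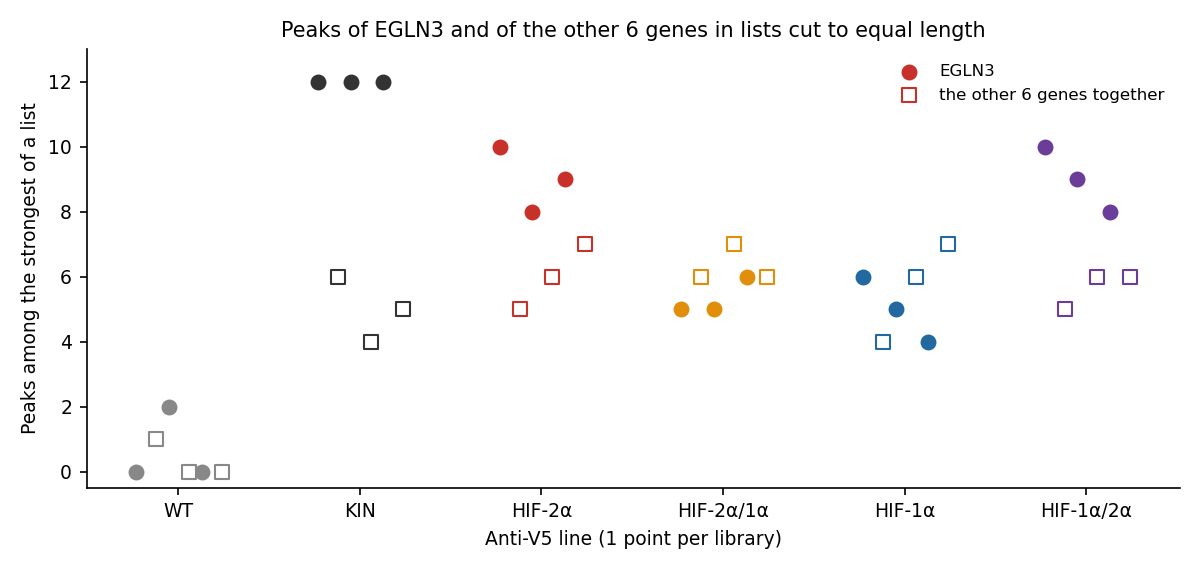
Number of peaks of EGLN3 (filled circles) and of the other 6 genes together (open squares) among the strongest peaks of each anti-V5 list, with all lists reduced to the length of the shortest tagged list. Each line has 1 circle and 1 square per library. EGLN3 counts are 8 to 10 for both lines that carry the HIF-2α IDR, 4 to 6 with the HIF-1α IDR and 12 in KIN, whereas the squares lie between 4 and 7 in all tagged lines.

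Whether calls differed between the domains could not be decided after adjustment. In the exogenous lines, 11 of the 50 regions were called in all 12 libraries, against 10.5% of all consensus regions. By IDR and by DBD, 6 libraries against 6, 0 of the 50 regions and 0 of all regions passed Fisher's exact test after adjustment. At an unadjusted exact p under 0.05 there were 0 of the 50 for both domains, and 359 (IDR) and 143 (DBD) over all regions.

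Strength was therefore compared for the 11 regions called in every exogenous library, with limma on the log2 of the deposited fold enrichment, centred in each library. The filter leaves out regions that a line lacked. Of the 11, 6 belonged to EGLN3, 2 to CITED2 and 1 each to EGLN2, ANKRD37 and SIAH2, and EGLN1 and HIF1AN had none. By IDR, 1 of the 11 was higher with the HIF-2α IDR, against 1.73% of the 2720 regions tested, and 0 were lower, against 0.551%. By DBD, 0 of the 11 differed, against 1.03% of all regions that were higher and 2.13% that were lower with the HIF-2α DBD, and at an unadjusted limma p under 0.05 there were 3 of the 11 and 444 of the 2720. For the IDR the unadjusted counts were 6 of the 11 and 454 of the 2720, and the 6 include the SIAH2 promoter, which was lower. They were 3 and 436 with quantile normalization, and 2 and 361 without centring. Medians of the 11 differences were 0.60 for the IDR and −0.10 for the DBD, against 0.06 and 0.01 over all 2720 regions. The IDR median rests on 1 locus, since the 6 EGLN3 regions lay at 0.26 to 2.21. At the other genes the IDR differences went both ways, from −0.72 to 0.73. No region passed the interaction test of DBD and IDR (0 of 2720, with 141 at an unadjusted limma p under 0.05).

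The one region that passed, chr14:34012448-34014369, lay 62.5 kb upstream of EGLN3 and had a peak in all 15 tagged libraries but in none of the 3 WT libraries. In HIF-2α cells its fold enrichment was 48.2, 65.9 and 23.4, from 63, 246 and 39 fragments inferred at the summit. HIF-1α/2α cells gave 38.6, 58.0 and 35.2, from 82, 114 and 50 fragments. With the HIF-1α IDR the values were lower, at 17.3, 14.2 and 11.3 in HIF-2α/1α cells and at 7.19, 14.4 and 6.94 in HIF-1α cells. The lowest library with the HIF-2α IDR, at 23.4, lay above the highest with the HIF-1α IDR, at 17.3, so the groups did not overlap. KIN cells, whose endogenous protein also has the HIF-2α IDR, gave 6.53, 11.0 and 7.96 from 8, 13 and 9 fragments, within or below the range of the HIF-1α IDR. Percentiles were ordered in the same way, from 91.0 to 97.5 with the HIF-2α IDR in exogenous lines, 31.1 to 81.3 with the HIF-1α IDR and 34.8 to 70.4 in KIN.

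**Figure D4:**
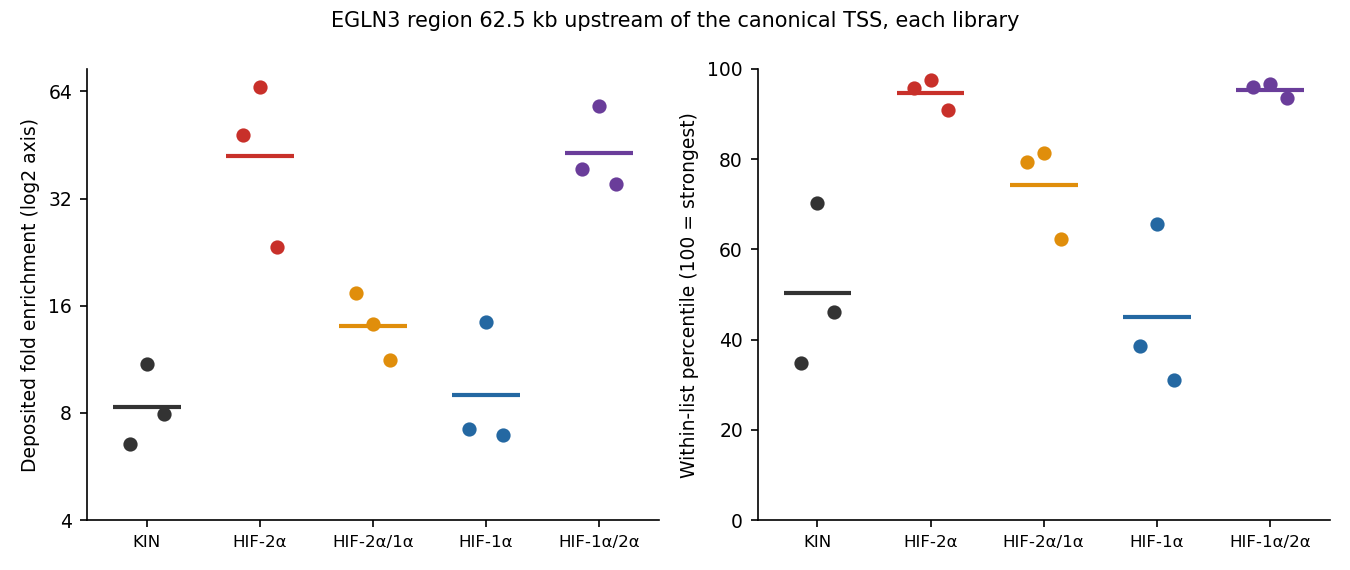
The EGLN3 region 62.5 kb upstream in each tagged library (points), as deposited fold enrichment on a log2 axis (left) and as percentile within the list (right, 100 is the strongest peak). Horizontal lines are means, on the left of the log2 values. HIF-2α and HIF-1α/2α libraries lie at fold enrichments of 23.4 to 65.9, above all HIF-2α/1α, HIF-1α and KIN libraries, which lie at 6.53 to 17.3.

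On the log2 scale, the region was 2.21 higher with the HIF-2α IDR than with the HIF-1α IDR (95% interval 1.54 to 2.88, limma adjusted p = 3.37e-06), the first of 2720 regions by p. When each library was left out in turn, the difference was 2.12 to 2.36 and passed in 12 of 12 fits. The DBD difference was 0.29 (−0.38 to 0.96, adjusted p = 0.748), and the interaction was −0.15 (−1.49 to 1.19, adjusted p = 1), an interval wide enough to hold a sizeable interaction in either direction. Between the full-length proteins, HIF-1α minus HIF-2α was −2.51 (−3.45 to −1.56, limma adjusted p = 0.000424). In that comparison 1 of the 11 regions was lower in HIF-1α cells, against 1.84% of all regions, and 0 were higher, against 1.4%. Without centring, the comparison of full-length proteins did not pass (−2.23, adjusted p = 0.0602).

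Exogenous and endogenous HIF-2α were compared over the 1720 regions called in all 15 tagged libraries, 9 of them at the 7 genes. The EGLN3 region 62.5 kb upstream was higher in HIF-2α than in KIN cells by 1.82 (0.90 to 2.74, limma adjusted p = 0.0273). It was the 1 region of the 9 that was higher, against 0.174% of all regions, and 0 of the 9 were lower, against 0.349%. This call was fragile. It did not pass with quantile normalization (1.84, limma adjusted p = 0.0621) or without centring (2.34, adjusted p = 0.0942). It was also lost in each of the 6 fits that left out 1 of the HIF-2α or KIN libraries being compared, where the difference was 1.58 to 2.00 and the limma adjusted p 0.0804 to 0.133.

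The summits in this region did not coincide in every library. They formed a single chain within 200 bp in 13 of the 15 tagged libraries, and the strongest peaks of HIF-1α replicate 3 and KIN replicate 3 had summits elsewhere in the region. Where regions were built from summits instead of merged peaks, the site therefore lacked 1 exogenous library and was not tested. In the fit on merged peaks, leaving out HIF-1α replicate 3 gave an IDR difference of 2.12 (limma adjusted p = 3.92e-05).

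Other EGLN3 regions leaned in the same direction by IDR but did not pass. The differences were 0.88 in the merged region 112.7 kb upstream (limma adjusted p = 0.129), 0.74 at 101.2 kb (0.264), 0.26 at 93.1 kb (0.744) and 0.70 at the region 12.5 kb downstream (0.268). The region 101.2 kb upstream had the largest DBD difference of the 11, −1.07 (−1.77 to −0.37, adjusted p = 0.07), with values of 12.6, 10.6 and 5.10 in HIF-2α, 3.60, 5.53 and 13.9 in HIF-2α/1α cells, 15.7, 12.2 and 12.7 in HIF-1α and 17.0, 18.6 and 19.8 in HIF-1α/2α. HIF-2α/1α replicate 3, at 13.9, exceeded 2 HIF-1α libraries, and without it the difference was −1.42 and passed (limma adjusted p = 0.0131). The summits here spread over 1693 bp, with that of HIF-1α/2α replicate 1 apart from all others, so the value compares a mixture of sites, and the region was not testable with summit-based regions.

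**Figure D5:**
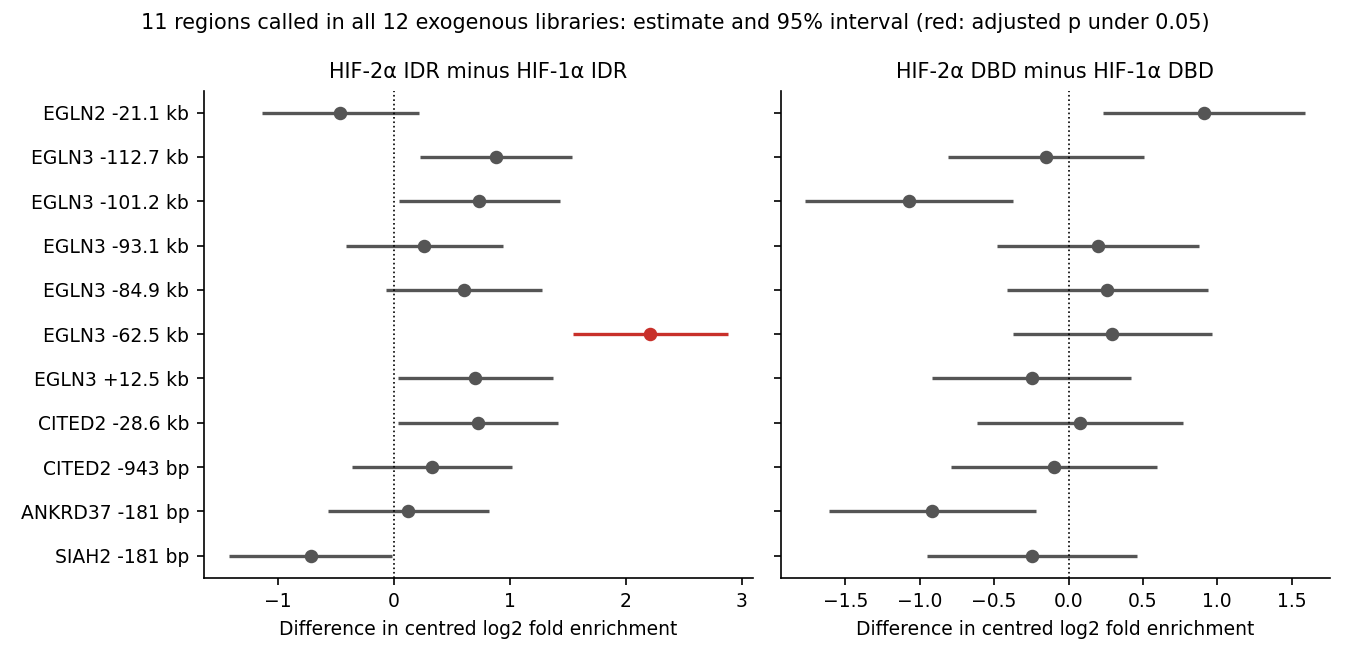
Differences in centred log2 fold enrichment for the 11 regions called in all 12 exogenous libraries, by IDR (left) and by DBD (right). Points are limma estimates and lines 95% intervals, and red marks an adjusted p under 0.05. The EGLN3 region 62.5 kb upstream is the only red point, at 2.21 by IDR, and the other 10 estimates lie between −0.72 and 0.88 by IDR.

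HIF1AN had the fewest peaks of the 7 genes, 15 over all lists. The region chr10:100529826-100530285 lay 945 bp from a HIF1AN TSS and 17 bp from that of NDUFB8, a respiratory chain subunit gene, and was called in 3 libraries (2 HIF-1α, 1 HIF-1α/2α). A second region, chr10:100518762-100519154, lay in an intron of SEC31B and was called in 2 HIF-2α/1α libraries and 1 HIF-1α library with fold enrichments of 15.9 to 31.2. Neither was called in KIN or WT cells.

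The CITED2 promoter was occupied evenly. The region chr6:139374160-139377561, 943 bp upstream of the TSS, was called in all 15 tagged libraries and in WT replicate 2. Its fold enrichment was 19.1, 24.3 and 14.6 in KIN, 39.3, 26.0 and 12.5 in HIF-2α, and 45.4, 20.2 and 14.5 in HIF-2α/1α. It was 24.0, 30.5 and 19.3 in HIF-1α and 19.8, 54.9 and 15.6 in HIF-1α/2α. All lines overlapped, with an IDR difference of 0.33 (−0.36 to 1.02) and a DBD difference of −0.10 (−0.79 to 0.59).

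Farther out at CITED2, 28.6 kb upstream, the region chr6:139402990-139403610 was called in all 12 exogenous libraries and in 0 of 3 KIN and 0 of 3 WT libraries. HIF-2α cells gave fold enrichments of 14.2, 43.6 and 7.01, HIF-2α/1α cells 6.34, 5.70 and 9.45, HIF-1α cells 6.32, 13.6 and 17.0, and HIF-1α/2α cells 12.9, 12.8 and 4.19. The lines overlapped, and neither the IDR difference (0.73, 0.04 to 1.42, limma adjusted p = 0.268) nor the interaction (2.11, 0.73 to 3.49, adjusted p = 0.735) passed.

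ANKRD37 had the promoter with the clearest contrast to untagged cells. The region chr4:185395181-185397844, with its summit 181 bp upstream of the TSS, had a peak in each of the 15 tagged libraries and in none of the 3 WT libraries. Fold enrichments were 8.34, 28.3 and 34.0 in KIN, 24.0, 36.2 and 6.64 in HIF-2α, and 55.4, 40.0 and 44.9 in HIF-2α/1α. They were 22.9, 100 and 23.1 in HIF-1α and 111, 65.8 and 62.0 in HIF-1α/2α. The chimeras were the highest lines here, and 1 HIF-1α library reached their level. The DBD difference of −0.91 (−1.61 to −0.22, limma adjusted p = 0.136) and the interaction of −1.87 (−3.26 to −0.49, adjusted p = 0.795) did not pass, and the IDR difference was 0.13 (−0.57 to 0.82).

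SIAH2 had a promoter peak in every exogenous library and in no KIN library. The region chr3:150763087-150764233, 181 bp upstream of the canonical TSS, was called in 12 of 12 exogenous, 0 of 3 KIN and 0 of 3 WT libraries. With the CITED2 region 28.6 kb upstream it was 1 of 2 regions of the 50 with this pattern, against 0.411% of all consensus regions. Fold enrichments were 7.57, 6.49 and 11.1 in HIF-2α, 12.7, 11.4 and 21.4 in HIF-2α/1α cells, 21.9, 18.9 and 17.5 in HIF-1α, and 3.81, 10.2 and 15.9 in HIF-1α/2α. KIN lists were 3984 to 13193 peaks long at depths of 0.256 to 0.378, and exogenous lists 5906 to 20808 peaks long at depths of 0.253 to 0.625. The part of list length and depth in these calls was not tested. The IDR difference was −0.72 (−1.42 to −0.01, limma adjusted p = 0.291). In KIN cells as a whole, 19 of the 50 regions were called in at least 2 of 3 libraries, against 19.6% of all consensus regions.

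Other genes of the pathway were counted in the same way from a list of 24 that included VHL and its partners, HIF subunits, further SIAH and CITED family members and the coactivators. Of these, 22 (91.7%) had a consensus region in the window and 15 (62.5%) had one at a TSS, against 76.7% and 38.1% of all coding genes. A region called in all tagged and no WT libraries lay in the window of 4 (ELOB, RBX1, FKBP8 and LIMD1). This was 16.7%, against 10.8% of all coding genes. Such a region lay at the TSS of 1 gene (4.17%), against 2.06% of all coding genes. That gene was RBX1, the RING subunit of the VHL ubiquitin ligase complex, whose promoter peak was found in all 15 tagged libraries and in no WT library. VHL itself had a TSS region in 3 tagged libraries.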

How the data were processed

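Cut&Run libraries came from 6 lines of 786-O cells. The authors aligned reads to hg38 with Bowtie2 2.3.4.1, keeping fragments between 10 and 700 bp. MACS2 peaks were called by the authors with a q-value limit of 0.01 and a largest gap of 400 bp, each anti-V5 library against the IgG library of its line and replicate. Replicates were not pooled. The deposited lists give, for each peak, the enrichment as a fold (a ratio) over local background, the p-value and q-value as −log10, and the summit offset. IgG libraries entered only through these calls.

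Autosomal, X and Y peaks were merged where they overlapped by 1 bp, and regions with peaks in at least 2 libraries were kept. Genes came from GENCODE release 44. Calls were tested with Fisher's exact test, and log2 fold enrichment of the strongest peak of each library in a region with limma 3.58.1 (lmFit and eBayes with trend, R 4.3.3), both with Benjamini-Hochberg adjustment over all regions. Regions tested for strength had a peak in every library of the fit. Depth and fragments at summits were inferred by inverting the Poisson p-value and fold that the authors deposited, which whole fragments matched within 0.001 of the −log10 p for 100% of the peaks checked in 17 libraries. In HIF-2α/1α replicate 2 the fragments had to be scaled by 0.949, and 99.5% matched within 0.01, so its inferred fragments are not whole numbers. Depth limits precision, and PCR duplicates were kept, so fragments are not independent molecules. Analyses used Python 3.11.15, NumPy 2.4.6, SciPy 1.17.1, pandas 2.3.3 and matplotlib 3.10.9, and the tests were checked on simulated data. Described for each gene were regions within 1 kb of its TSS, the region with the highest median percentile and any region that passed a strength test. The genes, the pathway list and these rules were chosen with earlier results of these data known. The labels number the replicates of each line without saying whether they are biological, and the p-values measure the spread between them. Alternatives were a replicate block, a −log10 q of at least 5, lists of equal length, a summit tolerance of 250 bp, other windows and scalings, and leaving out each library, and regions from summits within 200 bp were added after the data were seen.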

Additional observations from a re-analysis of the deposited data

How the results depend on the processing

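Calls against WT changed with the processing: the 5 regions became 8 at a −log10 q of at least 5, 3 with a summit tolerance of 250 bp, 0 with the replicate block and 0 to 6 when 1 library was left out. The values of 0 came where the exact test could not reach the threshold for any pattern of calls. Peaks of the 7 genes per tagged library fell from a mean of 32.3 to 13.8 in lists of equal length. By IDR, 1 region of the 11 passed, 3 passed on the logit of the within-list rank and 0 of the 8 testable with regions from summits within 200 bp, which left out the EGLN3 region. By DBD, 0 passed, against 1 on the logit scale (EGLN3 at 62.5 kb, higher with the HIF-2α DBD), 1 with the replicate block (EGLN3 at 101.2 kb, lower) and 0 to 1 when a library was left out. Between HIF-1α and HIF-2α, 1 passed, against 0 without centring, 2 on the logit scale and 0 with summit-based regions. Between HIF-2α and KIN, 1 passed, against 0 with quantile normalization, 0 without centring, 2 on the logit scale, 0 with summit-based regions and 0 to 1 when a library was left out. None of the differences that passed changed direction. Of 53 differences estimated for single regions, 15 changed sign under at least 1 alternative, and none of these passed under any. The median DBD difference of the 11 regions went from −0.10 to 0.31 on the logit scale. The cause was not tested except where fewer libraries or regions entered.

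Over all regions, calls by IDR were 62, of which 47 were higher, against 105 with the block, 48 with quantile normalization (28 higher), 6 without centring (2 higher) and 559 on the logit scale (275 higher). By DBD, 86 (28 higher) became 21 without centring (2 higher) and 405 on the logit scale. Between HIF-1α and HIF-2α, 88 (38 higher) became 94 with quantile normalization (50 higher), 6 without centring (6 higher) and 635 on the logit scale. Between HIF-2α and KIN, 9 (3 higher) became 19 with the block, 1 with quantile normalization (1 higher), 0 without centring, 155 on the logit scale (94 higher) and 5 with summit-based regions. Without centring, the median of all regions moved from 0.06 to −0.24 by IDR, from −0.02 to −0.55 for the interaction, from −0.05 to 0.23 for HIF-1α minus HIF-2α and from −0.09 to 0.43 for HIF-2α minus KIN.

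The labels do not say whether replicate numbers pair the samples, and the main fits did not use the numbers. Deviations of same-numbered exogenous libraries correlated at 0.03 to 0.20 (median 0.07) and exceeded 0.1 in 8 of 18 pairs. Exogenous libraries with different numbers had a median of −0.05 and exceeded 0.1 in 0 of 36 pairs. Of the exogenous libraries 12 of 12, and of the tagged libraries 15 of 15, correlated best with their own number. What the replicate numbers share was not tested. With the replicate block, the smallest adjusted p of the calls against WT was 0.0994, and the EGLN3 region 101.2 kb upstream passed by DBD (limma adjusted p = 0.0495).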
